A study of Mus musculus with 12 samples.

Results

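Long noncoding RNAs (lncRNAs) of the *Hox* clusters were followed in the ventral spinal cord of mouse embryos, as a list of 7 genes picked by name: *Hotairm1*, *Hoxa11os* and *Hottip* in the *Hoxa* cluster, *Hoxb5os* and *Hoxb3os* in the *Hoxb* cluster, *Hotair* in the *Hoxc* cluster and *Haglr* in the *Hoxd* cluster. All 7 were present among the 45777 genes of the expression tables. Total RNA was sequenced from E12.5 cords, cut at the brachial or the lumbar level and trimmed around the *Hb9::GFP* reporter of motor neurons (MNs). Of the 6 libraries of each level, 3 came from *Isl2* +/- embryos (Het) and the others from *Isl2* -/- embryos (KO), which gives 12 libraries in 4 groups. The KO allele is constitutive, with exons of *Isl2* replaced by a neomycin cassette, and there was no wild-type group, so every embryo carried at least one such allele. The study describes 3 animals per genotype, so brachial and lumbar libraries may come from the same embryos, which the labels do not tie together, and p-values measure the spread between libraries.

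*Hox* genes encode the transcription factors that give each segment of the spinal cord its position, and along a chromosome they are expressed in the order in which they lie, from head to tail. Between and across them, mostly on the opposite strand, lie lncRNAs. *Hotair* and *Hottip* became known for reported binding of chromatin complexes, Polycomb and Lsd1 for *Hotair* and Wdr5 of the MLL complexes for *Hottip*, and *Hotairm1* was found as a transcript induced in myeloid cells.

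The tissue was first checked against its markers. All 13 genes listed for MNs and ventral cord had a mean of at least 0.5 TPM in each group, whereas *Myod1* of muscle and *Scn10a* of sensory neurons were listed at 0 in all 12 libraries. Summed TPM of 11 mesenchyme and cartilage genes ranged from 78.1 to 119, that of 5 blood genes from 1860 to 5508 and that of 4 endothelial genes from 25.1 to 35.1, so RNA of blood and vessels was present. In such bulk samples, fewer cells of a type and less RNA per cell cannot be told apart. *Isl2* stood at 8.73, 8.33 and 9.72 TPM in brachial Het libraries and at 6.04, 7.28 and 4.47 TPM in brachial KO libraries. At the lumbar level it stood at 10.3, 8.43 and 9.43 TPM in Het and at 7.33, 6.53 and 8.24 TPM in KO. The KO libraries were below the Het libraries at both levels, but *Isl2* RNA remained, and the summed table does not separate exons. Libraries held 4.48 to 6.64 Gb of aligned bases, and 0 of 10 housekeeping genes were at 0 in any of them.

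All levels are deposited TPM, a share of transcripts scaled to gene length, rescaled here between libraries by size factors. The 7 lncRNAs differed widely in level. *Hoxb5os* was highest at both levels (89.1 ± 15.2 TPM brachial and 56 ± 10.5 TPM lumbar, SD, n = 6 libraries), followed by *Hotairm1* (50.2 ± 9.89 TPM brachial and 30.5 ± 4.42 TPM lumbar). *Hoxa11os* followed at the lumbar level (16 ± 2.58 TPM) and was listed at 0 in all brachial libraries. *Hoxb3os* (1.74 ± 0.524 TPM brachial and 2.02 ± 0.704 TPM lumbar) and *Haglr* (0.643 ± 0.142 TPM brachial and 1.06 ± 0.358 TPM lumbar) were near 1 TPM, and their ranges overlapped at the lumbar level. *Hotair* averaged 0.711 ± 0.427 TPM at the lumbar level, within the range of *Haglr* there, and *Hottip* was at 0 in 11 of 12 libraries.

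**Figure D1:**
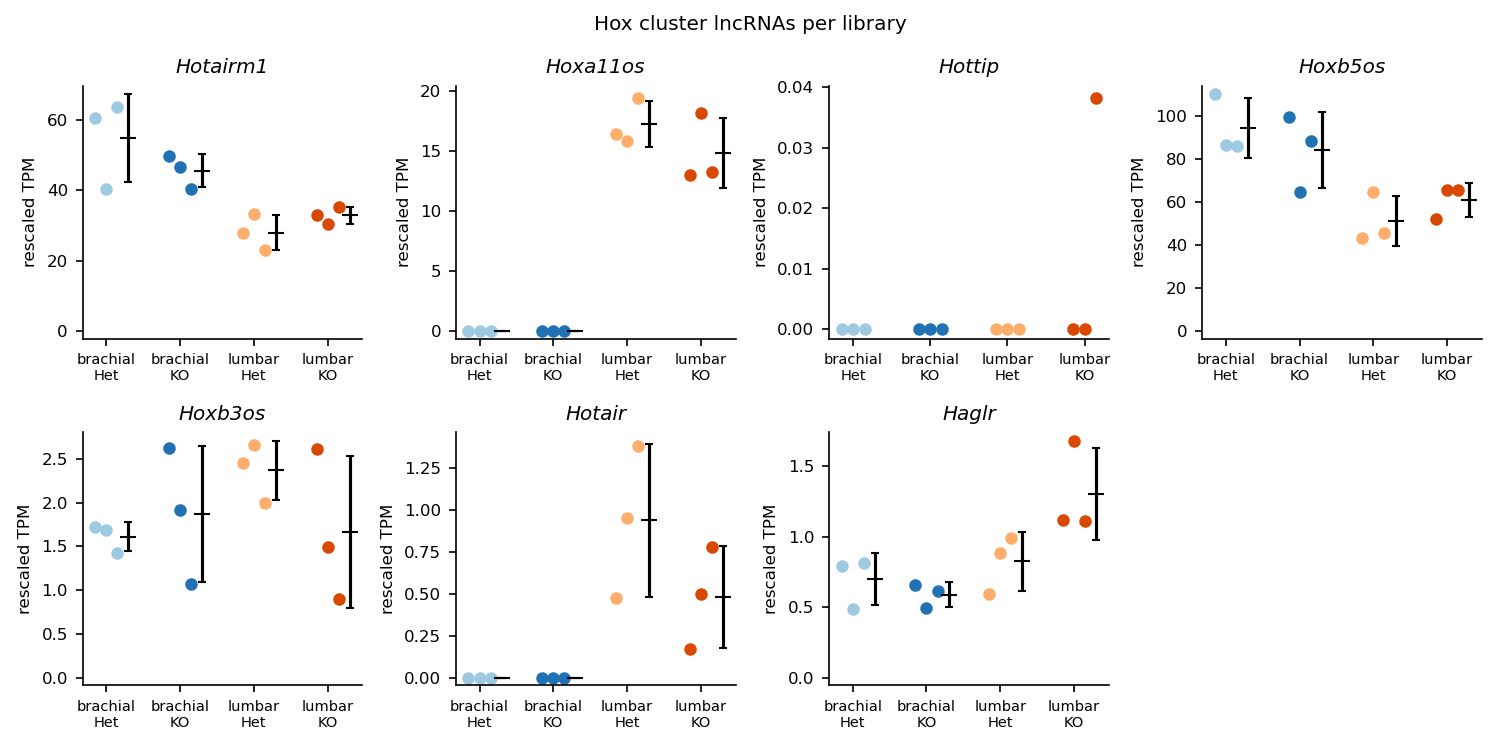
Rescaled TPM (y axis, linear, one scale per gene) of the 7 lncRNAs in every library, grouped by level and genotype on the x axis; black marks are means with SD of 3 libraries, left out for *Hottip*. *Hoxa11os* and *Hotair* are at 0 in every brachial library, while *Hotairm1* and *Hoxb5os* are lower at the lumbar level.

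Promoter sequence from RefSeq (GRCm38.p6, 250 bases before to 50 after the start) was found for 3 of the 7 genes, *Hoxa11os*, *Hottip* and *Hoxb3os*. The windows of *Hoxa11os* and *Hottip* are shown because these genes lie on either side of *Hoxa13*, on the plus strand of chromosome 6, and differ in whether they are detected at the lumbar level. Capitals mark matches, on either strand, to TTTATNG, a motif of caudal and posterior Hox factors, or to the TATA box TATAAA. The window of *Hoxa11os* is chr6:52244993-52245292 and that of *Hottip* is chr6:52262525-52262824.
Hoxa11os: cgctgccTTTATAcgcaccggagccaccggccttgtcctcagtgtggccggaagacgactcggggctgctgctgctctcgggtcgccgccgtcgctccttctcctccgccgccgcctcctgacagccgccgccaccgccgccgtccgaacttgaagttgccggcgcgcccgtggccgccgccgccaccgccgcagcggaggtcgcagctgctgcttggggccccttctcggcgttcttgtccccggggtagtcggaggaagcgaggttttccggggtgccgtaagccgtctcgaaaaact
Hottip: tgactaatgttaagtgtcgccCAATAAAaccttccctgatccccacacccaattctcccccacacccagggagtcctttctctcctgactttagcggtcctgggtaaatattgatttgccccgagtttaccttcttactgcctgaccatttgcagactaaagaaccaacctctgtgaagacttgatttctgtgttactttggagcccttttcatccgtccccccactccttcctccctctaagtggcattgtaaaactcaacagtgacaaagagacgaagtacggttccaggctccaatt
The *Hoxa11os* window held 1 match to TATAAA, a motif in 13.6% of the 32851 promoter windows of that length, and 41 CpG, more than 96.5% of the windows. Of its 300 bases, 282 are coding sequence of *Hox* genes. The *Hottip* window held 1 match to TTTATNG, present in 10.9% of windows, and 6 CpG, against a median of 7. The *Hoxb3os* window (chr11:96353345-96353644, minus strand) held 19 CpG and neither motif. Of its 300 bases, 282 are coding and 18 untranslated sequence of *Hox* genes. A motif of Hox with Pbx, TGATTNAT, found in 3.22% of windows, matched in none of the 3. A match is a description of the letters, not a site.

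The first comparison asked how these lncRNAs differ between the brachial and lumbar cord. Of the 7, 5 passed a mean of 0.5 TPM over the 12 libraries, and 3 of these 5 differed at an adjusted p under 0.05 (limma, genotype as a covariate), against 18.5% of all 16736 genes tested. *Hoxa11os* was higher at the lumbar level, where 8.88% of all genes were, and *Hotairm1* and *Hoxb5os* were lower, where 9.65% were. The median difference of all genes was 0.01 on the log2 scale. A gene seen at a single level can pass the filter through that level, as *Hoxa11os* did. The 5 therefore do not stand for the 7.

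*Hotairm1* (NCBI gene 105242658, GRCm38 chr6:52158524-52162020, plus strand) ends 396 bases before *Hoxa2*, which runs the other way. It stood at 60.5, 40.4 and 63.6 TPM in brachial Het, at 49.6, 46.7 and 40.5 TPM in brachial KO, at 27.8, 33.2 and 23.1 TPM in lumbar Het and at 33.1, 30.4 and 35.2 TPM in lumbar KO. Every lumbar library was below every brachial one, which 4.68% of all genes showed in that direction. The log2 difference was −0.71 (SE 0.13, limma adjusted p = 0.00369), and the exact permutation test of the level labels gave p = 0.00216, the smallest it allows with 6 against 6. Coverage of the gene was 69.2 to 188 reads deep, and none of the 253 exon bases in its GENCODE model lie over *Hox* exons of the other strand. *Hoxa2* went from 16.9 to 19.2 TPM (0.18, adjusted p = 0.269, limma). Summed TPM of the 4 endothelial genes was also lower at the lumbar level (25.1 to 29.5) than at the brachial level (30.1 to 35.1), and that of the 11 mesenchyme and cartilage genes, 4 of them at or above 0.5 TPM and *Pax1* at 0 in 11 libraries, was 78.1 to 107 at the lumbar and 107 to 119 at the brachial level. Their part in this result was not tested.

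*Hoxb5os* (NCBI gene 75395, chr11:96291037-96306910, minus strand) runs across *Hoxb5* and *Hoxb6*. It stood at 110, 86.5 and 85.7 TPM in brachial Het, at 99.2, 64.7 and 88.4 TPM in brachial KO, at 43.1, 64.6 and 45.5 TPM in lumbar Het and at 51.9, 65.5 and 65.6 TPM in lumbar KO. The ranges met only at brachial KO library 2, which lay below 2 lumbar KO libraries. The log2 difference was −0.67 (SE 0.14, adjusted p = 0.00642, limma; exact permutation p = 0.00649). The endothelial and mesenchymal sums given for *Hotairm1* moved the same way, and their part in this result was not tested either.

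*Hoxa11os* (NCBI gene 15397, chr6:52245243-52249769, plus strand) is antisense to *Hoxa11*, and such antisense transcription is known from the distal limb bud. It was listed at 0 in all 6 brachial libraries. In lumbar Het libraries it stood at 16.4, 15.8 and 19.4 TPM and in lumbar KO libraries at 13, 18.2 and 13.2 TPM. The ranges did not overlap, which 3.64% of all genes showed in that direction (exact permutation p = 0.00216). The limma adjusted p of 1.21e-12 passed, but its size is not read, because brachial values had no spread and stood at the pseudocount. With a pseudocount of 0.001 the adjusted p was 4.13e-08 (limma). No fold is given against a level listed at 0. *Hoxa11* was listed at 0 in the same 6 libraries and stood at 20.1, 20, 20.8, 14.8, 21.6 and 14.9 TPM in the lumbar ones, so the ratio of *Hoxa11os* to *Hoxa11* was 0.793 to 0.932 in each. Of the 1839 exon bases of *Hoxa11os*, 568 lie over exons of the opposite strand. The kit keeps strand, but the strand setting of StringTie is not given in the sources used here, so reads of this pair may be shared and its values are uncertain.

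*Hotair* (NCBI gene 100503872, chr15:102944062-102947946, minus strand), between *Hoxc12* and *Hoxc11*, did not pass the filter. It was listed at 0 in all 6 brachial libraries and at 0.476, 0.955 and 1.39 TPM in lumbar Het and 0.17, 0.5 and 0.777 TPM in lumbar KO libraries. All 6 lumbar libraries were above the brachial ones (exact permutation p = 0.00216), but the values rest on a coverage of 0.449 to 4.15 reads. Without a filter on low values, its adjusted p was 0.000602 (limma, 30567 genes), the size of which likewise rests on brachial values without spread. *Hoxc11* was listed at 0 in the brachial libraries and averaged 8.46 TPM in the lumbar ones, while *Hoxc12* was listed at 0 in all 12.

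*Hottip* (NCBI gene 791364, chr6:52262775-52267603, plus strand), beyond *Hoxa13* at the end of the cluster, was at 0 in 11 libraries. In lumbar KO library 3 it stood at 0.0383 TPM, or 0.119 reads deep over 2325 exon bases. *Hoxa13* was listed at 0 in all 12 libraries, so neither was detectable at this depth, apart from that trace of *Hottip*.

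*Haglr* (NCBI gene 102634678, chr2:74748422-74762896, minus strand) lies between *Hoxd3* and *Hoxd1*. It stood at 0.795, 0.485 and 0.813 TPM in brachial Het, at 0.66, 0.493 and 0.613 TPM in brachial KO, at 0.594, 0.887 and 0.993 TPM in lumbar Het and at 1.12, 1.68 and 1.11 TPM in lumbar KO. Lumbar Het library 1 lay within the brachial range. The difference of 0.61 (SE 0.22) had an unadjusted p of 0.0174 and an adjusted p of 0.0766 (limma), and without that library an adjusted p of 0.03. Both neighbours were higher at the lumbar level, *Hoxd3* by 0.51 (adjusted p = 0.00246) and *Hoxd1* by 0.71 (adjusted p = 0.0283, limma).

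*Hoxb3os* (NCBI gene 102632302, chr11:96343034-96353394, minus strand) overlaps *Hoxb2* and *Hoxb3*. It stood at 1.72, 1.69 and 1.43 TPM in brachial Het, at 2.62, 1.92 and 1.07 TPM in brachial KO, at 2.45, 2.66 and 2 TPM in lumbar Het and at 2.61, 1.49 and 0.902 TPM in lumbar KO. Over both genotypes the levels overlapped across their whole range, with a difference of 0.17 (95% interval −0.41 to 0.74, adjusted p = 0.711, limma). In Het alone the lumbar libraries lay above the brachial ones, while in KO they overlapped, and this split was not tested.

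Beside them, 31 of 38 protein-coding *Hox* genes were tested, of which 12 were higher and 8 lower at the lumbar level. Of the 26 other noncoding genes between the outermost *Hox* genes, 21 were tested, with 6 higher and 7 lower. The 5 of highest mean level were *Mira*, *Gm38462*, *Gm53*, *Gm36878* and *Gm30528*. *Mira*, between *Hoxa6* and *Hoxa7*, fell from 61.3 ± 3.83 to 28.8 ± 1.44 TPM, and *Gm30528*, overlapping *Hoxc4*, from 17.4 ± 1.08 to 4.08 ± 1.23 TPM. *Gm53*, between *Hoxb13* and *Hoxb9*, rose from 0.0997 to 47.1 ± 20.3 TPM, *Gm38462*, across *Hoxd8*, from 15 ± 3 to 44.2 ± 5.65 TPM and *Gm36878*, within *Hoxc9*, from 11.9 ± 5.43 to 20.5 ± 4.92 TPM. All 5 passed the test (limma adjusted p from 7.57e-08 to 0.00813). Lumbar *Gm53* stood at 56.5 to 66.5 TPM in Het and at 20.3 to 55.7 TPM in KO, without overlap. Of all genes, 5.51% were wholly lower in this way. Its difference of −1.05 was past the study's threshold of a log2 fold change beyond 0.5 with an unadjusted p under 0.05 (unadjusted p = 0.0138, adjusted p = 0.999, limma). It was the 1 past it of 20 other noncoding genes tested there, against 0.793% of all genes as lower. In brachial KO 18 were tested, and *Gm36878* was past the threshold as higher (0.78, unadjusted p = 0.014, adjusted p = 0.359, limma). A further 1, outside the 5 named, was past it as lower (−0.53, unadjusted p = 0.00729, limma). Of all genes, 2.23% and 0.874% were.

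**Figure D2:**
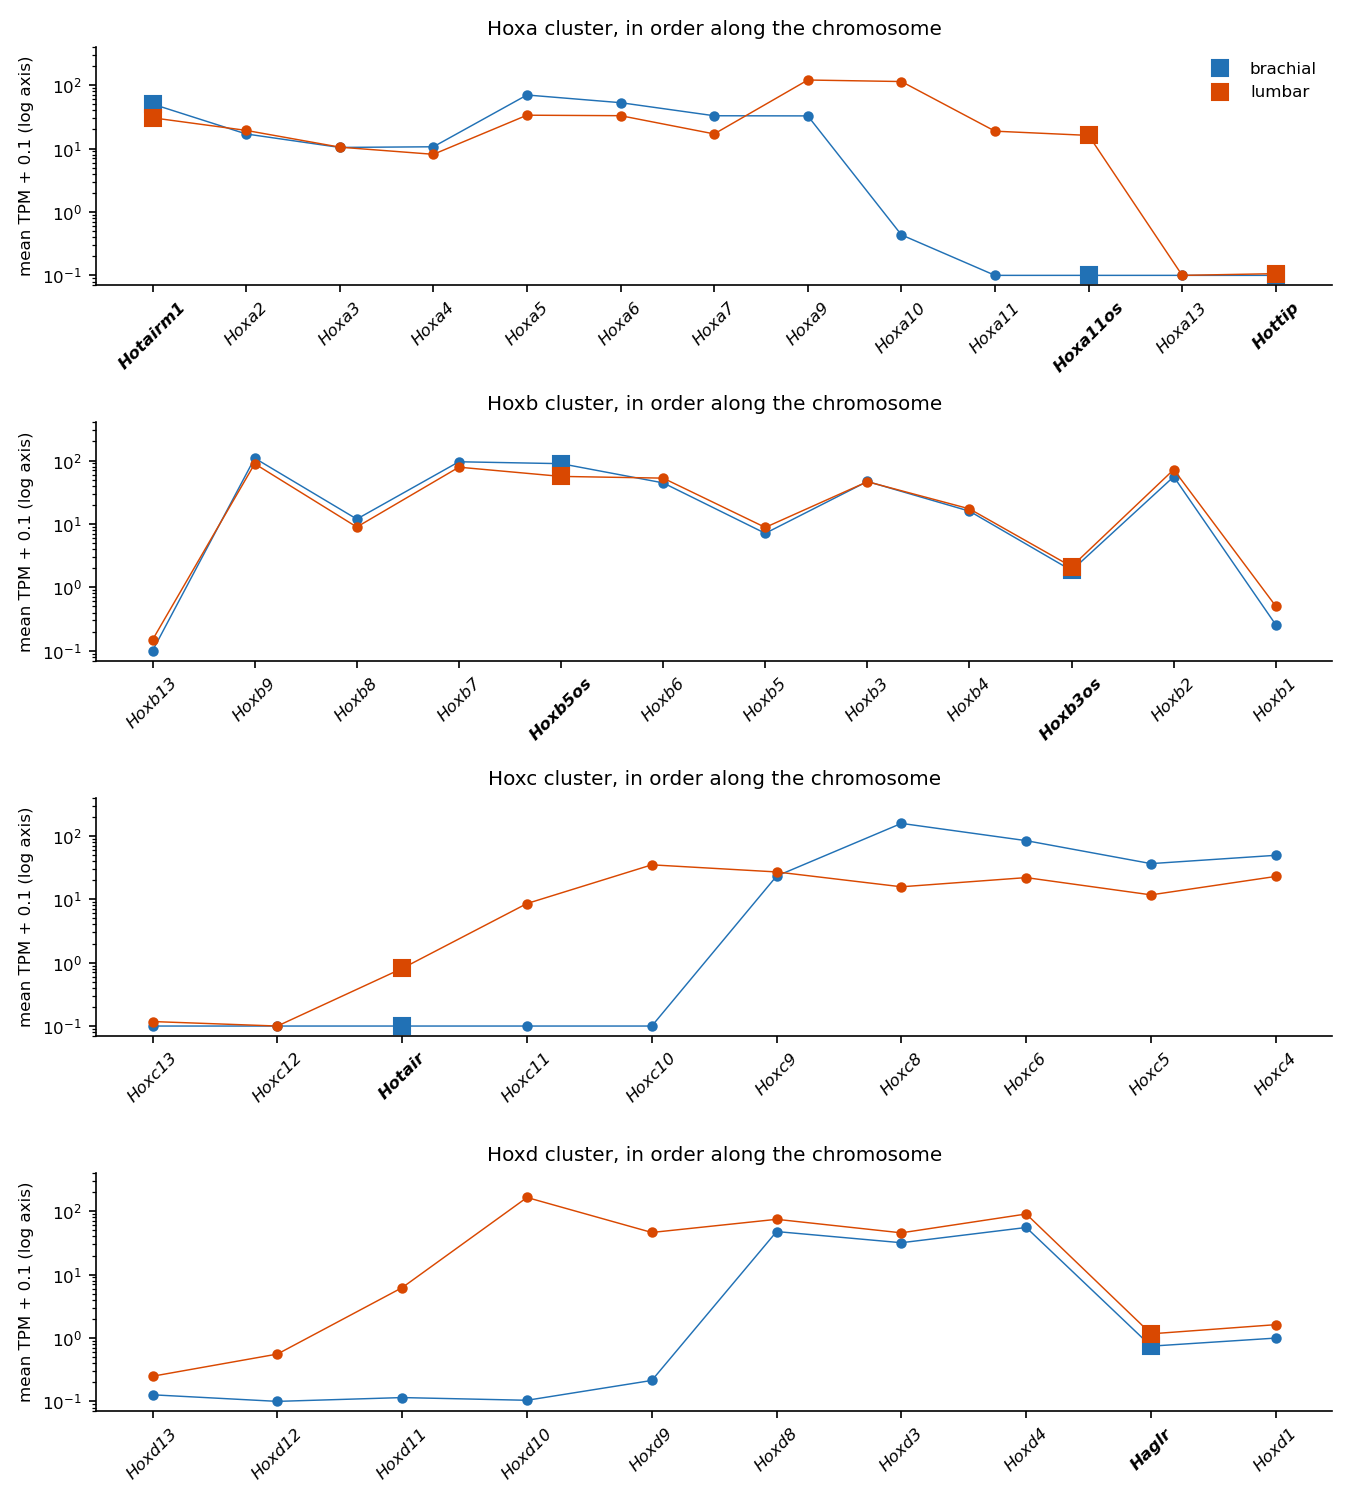
Mean TPM + 0.1 over 6 libraries (log axis) of the protein-coding *Hox* genes (circles) and the 7 lncRNAs (squares, bold names), in the order in which they start along each chromosome. *Hoxa11os* and *Hotair* lie with *Hoxa11* and *Hoxc11* among genes at 0 in brachial libraries, and *Hotairm1* and *Hoxb5os* sit where both levels are well above 1 TPM.

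The second comparison asked whether a lncRNA and its neighbouring *Hox* gene changed by the same factor between levels. Of 17 pairs set by position, 16 were tested with an exact permutation test of the level labels, and 8 had an adjusted p under 0.05. In 4 of the 8 a gene was at or under 0.1 TPM at a level, so the ratio there depends on the 0.1 added and has no direction of its own. Among the 11 pairs with both genes above 0.1 TPM at both levels, the other 4 were found, all with less lncRNA per *Hox* transcript at the lumbar level. These were *Hotairm1* with *Hoxa2*, and *Hoxb5os* with *Hoxb5*, *Hoxb6* and *Hoxb3*. Both lncRNAs were already called lower at the lumbar level, so the 4 are not separate results. A share over other gene pairs was not computed.

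*Hoxb5os* parted from the 2 genes it overlaps. It stood at 8.71 to 17.5 times the TPM of *Hoxb5* in brachial libraries and at 4.43 to 7.56 times in lumbar ones, and its log2 ratio went from 3.66 ± 0.441 to 2.66 ± 0.285 (SD, n = 6; adjusted p = 0.00495, exact permutation test). Against *Hoxb6* the ratio was 1.88 to 2.2 in brachial and 0.866 to 1.4 in lumbar libraries (−0.92, adjusted p = 0.00495, exact permutation test). Against *Hoxb3* the log2 change was −0.66 (adjusted p = 0.00866, exact permutation test), and against *Hoxb7* it was −0.40 and did not pass (adjusted p = 0.159, exact permutation test). *Hoxb5* and *Hoxb6* themselves were at 7 and 44.3 TPM in brachial and at 8.71 and 52.6 TPM in lumbar libraries, and neither passed the test between levels (adjusted p = 0.0907 and 0.119, limma). The overlap with these genes is 2610 and 8756 bases, and without the strand setting the split of reads between them is uncertain, as it is for *Hoxb3os* over *Hoxb2* and *Hoxb3*.

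The ratio of *Hotairm1* to *Hoxa2* was 2.3 to 3.5 in brachial and 1.17 to 1.99 in lumbar libraries, without overlap (−0.89, adjusted p = 0.00495, exact permutation test). For *Haglr* against *Hoxd3* and *Hoxd1* the changes were 0.10 and −0.10, and for the 4 pairs of *Hoxb3os* they ran from −0.83 to 0.18, and none passed.

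**Figure D3:**
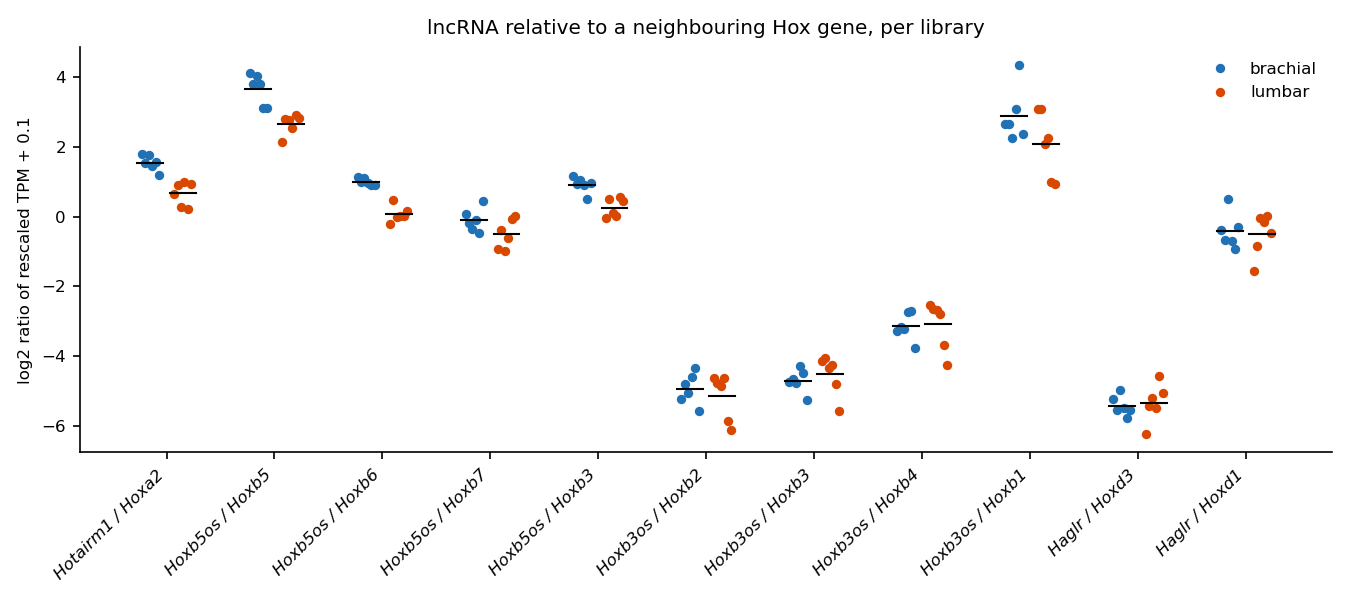
Log2 ratio of rescaled TPM + 0.1 of a lncRNA to a neighbouring *Hox* gene (y axis) in each of the 12 libraries, for the 11 pairs with both genes measured at both levels; bars are means of 6 libraries. Brachial and lumbar libraries separate for *Hotairm1* to *Hoxa2* and for *Hoxb5os* to *Hoxb5* and *Hoxb6*, and overlap for *Haglr* to *Hoxd3* and *Hoxd1*.

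Likeness over the 12 libraries was measured as the root-mean-square difference of centred log2 values, over 13288 protein-coding genes. *Hoxa11* was most like *Hoxa11os* (0.12), ahead of *Hoxd9* (0.52) and *Hoxc11* (0.56). For *Hotairm1* the nearest were *Cntn5* (0.19), *Trim12c* (0.20) and *Cldn5* (0.21). The nearest to *Hoxb5os* were *Ephx2* (0.19), *Ctsk* (0.21) and *Tradd* (0.21), to *Haglr* *Pimreg* (0.16), *Slc25a13* (0.17) and *Cdca7* (0.17) and to *Hoxb3os* *Mmp23* (0.24), *Mag* (0.27) and *Kcnj9* (0.27). These lists are given as a description.

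The third comparison was KO against Het at each level. At the brachial level 4 of the 7 lncRNAs were tested and 0 had an adjusted p under 0.05 (limma), against 0.0059% of all genes. None had an unadjusted p under 0.05, where 13.8% of all genes did, and none passed the study's threshold, which 0.874% of genes passed as lower and 2.23% as higher in KO. The KO and Het ranges overlapped for the 4 tested, the other 3 being listed at 0 in all 6 libraries, whereas 9.67% of genes were wholly higher and 10.3% wholly lower in KO. The differences ran from −0.24 for *Hotairm1* (95% interval −0.65 to 0.16) to 0.12 for *Hoxb3os* (−0.62 to 0.86). Leaving out each library moved that of *Hotairm1* between −0.45 and −0.12 and that of *Haglr* (−0.19) between −0.40 and −0.08. Among the neighbours of the 4 lncRNAs, *Hoxb5* alone had ranges apart, higher in KO (0.46, unadjusted p = 0.0273, adjusted p = 0.359, limma).

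At the lumbar level 6 were tested and again 0 were called (limma), as for 0% of all genes. None had an unadjusted p under 0.05, against 4.88% of genes, or passed the study's threshold, which 0.793% passed as lower and 0.975% as higher. *Haglr* was the only one of the 6 whose ranges did not overlap, with all 3 KO libraries above all 3 Het libraries, as 4.43% of genes were. Of all genes, 5.51% were wholly lower in KO, and none of the 6. The *Haglr* difference was 0.60 (95% interval −0.08 to 1.29, unadjusted p = 0.0772, limma), and the exact permutation p of 0.1 is the smallest that 3 against 3 allows. Its neighbours *Hoxd3* and *Hoxd1* differed by 0.02 and −0.01 in the same libraries.

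*Hotair* showed the widest interval, with a KO difference of −0.89 (−2.13 to 0.35, unadjusted p = 0.136, limma) and overlapping ranges. When each library was left out, the difference ranged from −1.26 to −0.41, the latter without lumbar KO library 1, its lowest value. *Hoxc11* beside it stood at 9.62, 8.99 and 13.5 TPM in Het and at 4.65, 6.06 and 7.87 TPM in KO, a difference of −0.79 with an unadjusted p of 0.00734 and an adjusted p of 0.999 (limma). For *Hoxa11os*, *Hotairm1*, *Hoxb5os* and *Hoxb3os* the lumbar differences were −0.23, 0.24, 0.27 and −0.59, each with an interval that includes 0. When each library was left out they ranged from −0.38 to −0.14, from 0.11 to 0.37, from 0.16 to 0.45 and from −0.96 to −0.24. The −0.96 of *Hoxb3os*, without lumbar KO library 1, was past the study's threshold (unadjusted p = 0.0124, adjusted p = 0.732, limma). Of the neighbours of these lncRNAs, *Hoxb6* (0.29), *Hoxb4* (0.36) and *Hoxb1* (0.77) were wholly higher in lumbar KO and *Hoxb7* (−0.27) wholly lower. Of all genes, 4.43% and 5.51% were. *Hoxb1* averaged only 0.403 TPM at the lumbar level, and no other neighbour of theirs had ranges apart.

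**Figure D4:**
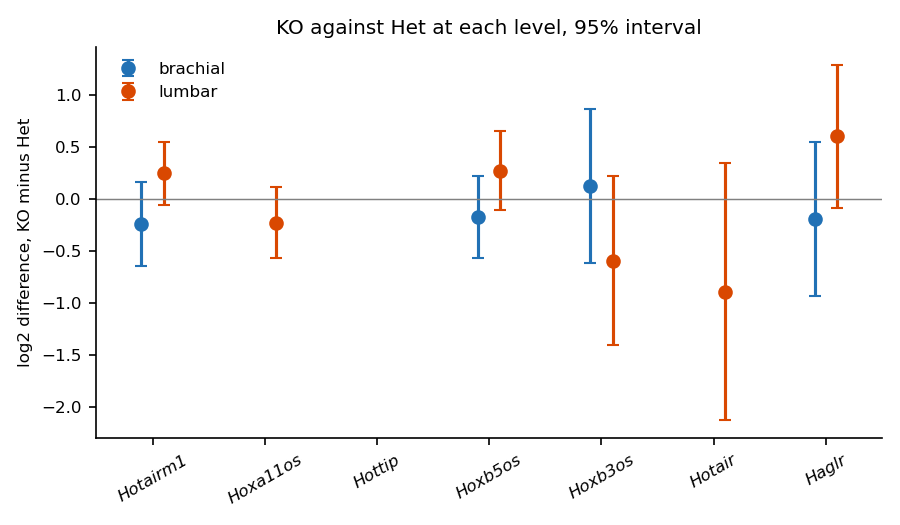
KO minus Het on the log2 scale (y axis) with its 95% interval from limma, at the brachial and lumbar level, 3 against 3 libraries each; genes with no point did not pass the filter at that level. Every interval includes 0.

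The difference of the KO effect between levels was tested directly for 5 of the 7 lncRNAs. 0 had an adjusted p under 0.05 (limma; 0% of all genes) and 0 an unadjusted p under 0.05, against 4.42% of genes. The largest was *Haglr*, with 0.79 (95% interval −0.09 to 1.68, unadjusted p = 0.0752, limma). Over both levels together 0 of 5 were called (limma), against 0.0418% of genes, and 0 had an unadjusted p under 0.05, against 14% of genes. There, *Hotairm1* differed by 0.00 (−0.29 to 0.29) and *Hoxb5os* by 0.05 (−0.26 to 0.35).

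Of the 14 chromatin genes listed as partners of *Hotair* and *Hottip*, all were tested and 5 were higher at the lumbar level (limma adjusted p under 0.05), with 0 lower, against 8.88% and 9.65% of all genes. These were *Eed* (0.25), *Ezh2* (0.24) and *Rbbp4* (0.28), of Polycomb complex PRC2, *Kdm1a* (0.18), which encodes Lsd1, and *Wdr5* (0.19). The median over the 14 was 0.15, against 0.01 for all genes. *Sox2*, a marker of neural progenitors, averaged 76.4 and 74.2 TPM in brachial Het and KO and 90.2 and 105 TPM in lumbar ones. Other progenitor genes of the ventral cord list did not all move this way. In the same order, *Nkx6-1* averaged 2.69 and 4.34 against 7.09 and 6.33 TPM. *Olig2* averaged 4.18 and 4.71 against 2.75 and 2.45 TPM, and *Nkx2-2* 1.72 and 2.16 against 1.29 and 2.13 TPM. The endothelial sums were lower at the lumbar level, and the part of any of these in this result was not tested. Between KO and Het, 0 of 14 were called at either level (limma), and the 2 with an unadjusted p under 0.05 in brachial cord (*Kmt2b* and *Dpy30*) and the 1 in lumbar cord (*Suz12*) stand beside 13.8% and 4.88% of all genes, so they are not read as results.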

How the data were processed

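Ventral spinal cord RNA was sequenced in 12 libraries (TruSeq Stranded Total RNA, Ribo-Zero). Per the labels and methods, trimming was by Trimmomatic 0.38, mapping to mm10 by HISAT2 2.1.0 with Bowtie2 2.3.4.1 and quantification by StringTie 2.1.3b, whose TPM, scaled to gene length and library total, the authors deposited. The deposited coverage and FPKM values of the authors come from the same run, and their ratio gave the aligned bases, being constant (within 0.1%) for 91.2% to 92.1% of single-transcript genes in each library. No counts were among the values used here, so DESeq2, the authors' tool, was not run, and intervals for single libraries are not given. Of 45777 NCBI gene identifiers, 45679 were matched to symbols of GRCm38.p6, and 96.4% had identical coordinates.

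Size factors (median of ratios) rescaled TPM between libraries. After a pseudocount of 0.1, limma 3.58.1 (R 4.3.3, trended eBayes) was run on log2 values of all genes whose mean reached 0.5 TPM, with Benjamini-Hochberg adjustment. Fold changes are on this scale and understate those of low genes. Exact permutation tests are two-sided. Levels were compared in all 12 libraries with genotype as a covariate, and genotypes within each level. Python 3.11.15 with pandas 2.3.3 was used, and the fits were tested on simulated data. Neighbours were the nearest *Hox* gene on each side and any overlapping one, and 1 protein-coding gene is not reported here. Named besides the 7 and their neighbours were the 5 other noncoding cluster genes of highest mean TPM, the 3 most alike protein-coding genes for each, and listed chromatin and marker genes. The members and lists were chosen with earlier results of these data known. Alternatives were pseudocounts of 0.001 and 1, no filter or a mean of 1 TPM, deposited TPM, quantile normalization, no trend, coverage, a replicate block, one fit of all 12 libraries, and leaving out each library.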

Additional observations from a re-analysis of the deposited data

How the results depend on the processing

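The calls between levels for *Hotairm1*, *Hoxb5os* and *Hoxa11os* were kept under all alternatives run, and the count of 3 became 4 without a filter, by *Hotair*, and ranged from 3 to 4 when each library was left out, the fourth being *Haglr* (log2 difference 0.74) without lumbar Het library 1. Past the study's threshold at the lumbar level, 1 lncRNA was higher in KO, *Haglr*, without a trend and with coverage in place of TPM. With replicate number as a block, 1 lncRNA, *Hotair*, was lower in KO past it, and leaving out a library gave 0 to 1, the 1 being *Hoxb3os* without lumbar KO library 1. The replicate block left 3 adjusted calls between levels and 0 in the genotype comparisons. Whether libraries of the same number share an embryo is not known. Correlations of their deviations from the group means ran from −0.22 to 0.34, which does not settle the pairing, and a call lost or gained under the block is not read as a change of effect. The pair counts were 8 to 9 over all pairs and 4 among pairs measured at both levels.

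Signs turned only for differences that passed no test. For KO against Het, these were *Hoxb5os* at the brachial level with deposited TPM (0.00089) and *Hotairm1* over both levels with a pseudocount of 1 (−0.0013) and with coverage (−0.0018). When each library was left out, the brachial difference ranged from −0.15 to 0.46 for *Hoxb3os* and from −0.31 to 0.0026 for *Hoxb5os*, and the difference over both levels from −0.084 to 0.081 for *Hotairm1* and from −0.026 to 0.15 for *Hoxb5os*. Among changes of ratio between levels, *Haglr* to *Hoxd3* became −0.19 with a pseudocount of 1. In Het libraries alone *Haglr* to *Hoxd3* was −0.38, *Hoxb3os* to *Hoxb2* 0.28 and *Hoxb3os* to *Hoxb1* 0.22. In KO libraries alone *Haglr* to *Hoxd1* was 0.44, and *Hoxb3os* to *Hoxb3* and *Hoxb4* −0.20 and −0.51. Leaving out each library gave ranges of −0.071 to 0.28 for *Hoxb3os* to *Hoxb4*, −0.052 to 0.28 for *Haglr* to *Hoxd3* and −0.20 to 0.11 for *Haglr* to *Hoxd1*. The causes were not tested. Groups of 3 and low coverage of *Hotair*, *Haglr* and *Hottip* limit what the genotype comparisons can show.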
